A study of Rattus norvegicus with 3 samples.

Results

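At 2 days from occlusion of the middle cerebral artery (MCAO), the ipsilateral cerebellar cortex was compared with that of sham-operated rats. Most genes of a list of glucocorticoid-responsive genes, 2 metallothioneins, most complement genes and Ttr of the choroid plexus were higher than in the control group. Most of the glucocorticoid-responsive and complement genes were higher by less than the threshold used, a log2 ratio of 1. Globins were lower, and most genes of cholesterol synthesis were lower by less than the threshold used. Of 19 immediate early genes, 14 had log2 ratios below 0 and 3 below -0.5, with a median of -0.10. The comparison takes 2 of the 3 arrays of the study, the array of the ipsilateral side and that of the control group. Its members were the genes with a symbol, every probe well above background on both arrays and a signal bright enough to stand clear of the background of the dimmer array, and 10032 of 16116 named genes (62.2%) met this rule. They are called bright genes here.

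Gene expression was measured on 1-colour microarrays, which take RNA of a single sample, labelled with Cy3, and give the fluorescence intensity of each spot. The rats were male Wistar rats aged 9 weeks. In the MCAO group the right middle cerebral artery was occluded transiently with a suture passed inside the vessel, and the ipsilateral cerebellar cortex is that of the right side of these rats, taken 2 days later. In the control group the carotid artery was exposed without being opened, and the left cerebellar cortex was taken 2 days later. Tissue of 4 rats was pooled for each array. The contralateral cerebellar cortex, on a further array, is that of the left side of the same MCAO rats, and its values are given beside the others where they help. There was 1 array for each group, and a difference between them is that of single pools, without a test. The ipsilateral pool was of the right side and the control pool of the left, so that from these 2 arrays an effect of MCAO and a difference between right and left cannot be told apart. The contralateral pool was of the left side, as was the control pool, and the part of side in the ratios was not tested.

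The infarct of MCAO lies in the cerebrum, outside the cerebellum. After such an infarct, blood flow and metabolism fall in the opposite cerebellar hemisphere, which receives the crossed projection of the damaged cortex through the pons, a state known as crossed cerebellar diaschisis. The ipsilateral hemisphere receives little of this projection, but it is exposed to the same circulating hormones, cytokines and acute phase signals as the rest of the body.

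The signals carried the markers of cerebellar cortex. Itpr1, the inositol trisphosphate receptor of Purkinje cells, had a signal of 63490 in the ipsilateral cerebellar cortex and 56630 in the control group, a log2 ratio of 0.16. Cbln1, the synapse organiser released by granule cells, was read at 41870 and 44300, a log2 ratio of -0.08. Pvalb, the calcium buffer of molecular layer interneurons, was at 44400 and 37130, a log2 ratio of 0.26. These neuronal markers were thus bright in both pools. Of the 19 forebrain markers on the array, Tbr1, Fezf2 and Rasgrf2 were not well above background in either pool, and of the 20 markers of brainstem and deep nuclei, Hoxb5, Chat, Slc5a7, Slc6a4 and Slc6a2 were not. Actb, the cytoskeletal actin often used as a reference, was read at 14040 and 15820, a log2 ratio of -0.17.

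The ipsilateral array was the dimmer array. The 75th percentile of its 58717 spots that are not controls was 1614, against 2336 on the control array and 2103 on the contralateral array, while 43028, 43283 and 42470 spots were well above background. Log2 signals were therefore shifted to a common 75th percentile. This raised the background of the ipsilateral array, on which the 308 negative control spots, designed to bind nothing, showed a median log2 signal of 1.57 against 1.06 on the control array. A gene was taken as bright when its scaled signal was at least 10 times the 95th percentile of these spots on both arrays, a limit of 34.0. The 200 genes just inside the limit had a median log2 ratio of 0.04, with 7 above 1 and 1 below -1. The 200 just outside had a median of 0.10, with 8 above 1 and 2 below -1. Over all 1259 named genes that were well above background on both arrays and under the limit, the median was 0.29, 159 (12.6%) lay above 1 and 31 (2.46%) below -1. Among them was Glycam1, a mucin-like ligand of L-selectin, with a signal of 985 in the ipsilateral cerebellar cortex, 16.8 in the control group and 162 in the contralateral cerebellar cortex, chosen after its values were seen. It was bright on the ipsilateral array and under the limit on the control array.

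**Figure D1:**
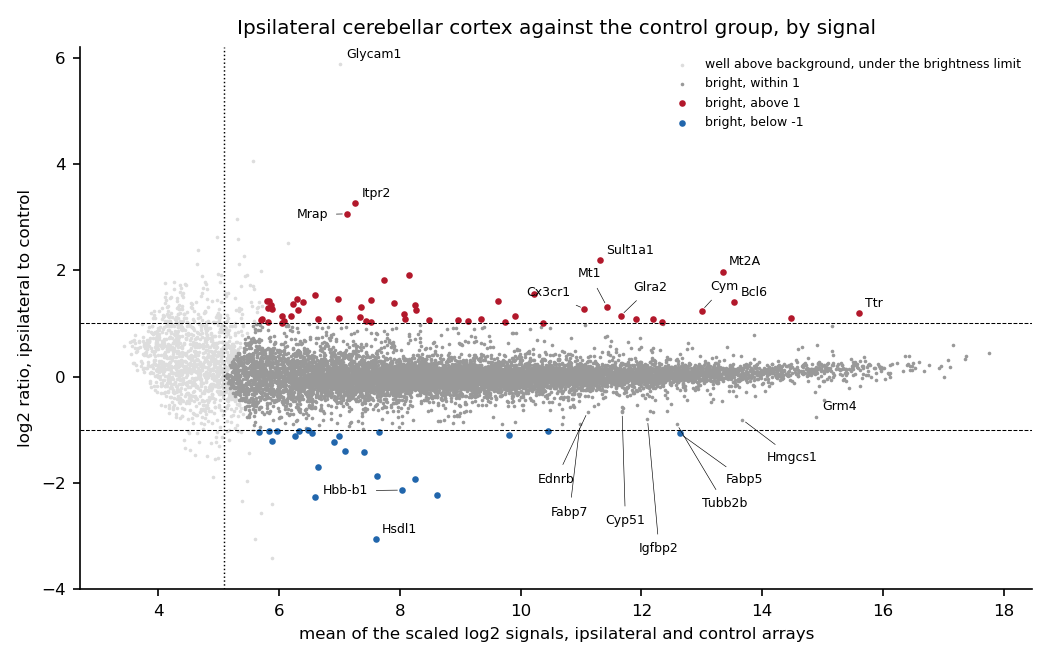
Each point is a named gene well above background on both arrays, placed by the mean of its scaled log2 signals (horizontal axis) and its log2 ratio of ipsilateral to control (vertical axis). The dotted line is the brightness limit of 5.09 and the dashed lines lie at 1 and -1. The 55 bright genes above 1 are red and the 23 below -1 are blue.

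Most bright genes were close to the control group. The median log2 ratio was 0.0062, and 9496 genes (94.7%) lay between -0.5 and 0.5. Of all bright genes, 51.5% lay above 0, and each count above 0 in a list below is to be read beside that share. In the ipsilateral cerebellar cortex, 55 genes were increased by a log2 ratio above 1, which was 0.548% of the bright genes, and 23 were decreased below -1, which was 0.229%. Increased genes made up 70.5% of these. This split depended on the scaling, because the arrays differ in overall brightness. The median of all bright genes was -0.53 without scaling, where 2.47% of the genes beyond the threshold were increased, and -0.25 after scaling to spike-in probes, where 26.8% were. These scalings shift all log2 ratios by the same amount, so counts relative to the median of all bright genes could not differ between them. Counted in that way, 53 were above 1 and 23 below -1, and all ratios below are to be read relative to that median. With 50 added to the signal, which is not such a shift, these counts were 25 and 11. Of the 55 increased genes, 39 were read from 1 spot, as were 13 of the 23 decreased genes. Where a probe had 5 or more spots, the SD of the log2 ratio between the spots had a median of 0.04 over 436 genes. This is the error within an array and covers neither rats nor hybridisations.

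The highest ratio of a bright gene was that of Itpr2, an inositol trisphosphate receptor that releases calcium from the endoplasmic reticulum. Its signal was 477 in the ipsilateral cerebellar cortex, 49.5 in the control group and 54.7 in the contralateral cerebellar cortex, a log2 ratio of 3.27 to the control group. Only the ipsilateral pool was high, on 1 spot. Mrap, the accessory protein that brings the corticotropin receptor to the cell surface, had signals of 401, 48.1 and 420 in the same order, a log2 ratio of 3.06, and here both pools of the MCAO group were high. Grifin, a galectin-like protein known from the lens, was read with 2 probes at 554, 147 and 575, and its probes gave log2 ratios of 1.77 and 2.07. The control pool was the low one.

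Ccn2, a matricellular protein also known as connective tissue growth factor, was read from 9 spots. Its signal was 401 in the ipsilateral cerebellar cortex, 114 in the control group and 342 in the contralateral cerebellar cortex. The log2 ratio was 1.81, with an SD of 0.23 between spots. Gpnmb, a transmembrane glycoprotein of phagocytic cells, had signals of 211, 76.2 and 167 over 10 spots, a log2 ratio of 1.47. Mgst2, a microsomal glutathione transferase that can make leukotriene C4, had signals of 131, 47.7 and 123 over 9 spots, a log2 ratio of 1.46. In each of these genes with replicated spots, the difference was larger than the spread between spots.

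Further genes with high ratios came from varied functions. Pla1a, a phospholipase that acts on phosphatidylserine, had signals of 166 in the ipsilateral cerebellar cortex and 57.2 in the control group over 2 probes, a log2 ratio of 1.53. Ttc36 was read at 302 and 112, a log2 ratio of 1.43. Glipr1 was read at 137 and 51.8, a log2 ratio of 1.40, and at 64.9 in the contralateral cerebellar cortex. Or10al7, an olfactory receptor gene, was read at 93.0 and 34.7, close to the brightness limit, with a log2 ratio of 1.42. Fibin, Pnpla7 and Lgals3 were increased on both of their probes, with log2 ratios of 1.34, 1.05 and 1.04. Lgals3 encodes galectin-3, a lectin of activated macrophages and microglia, and Pnpla7 a lysophospholipase. Lgals3 was read at 804 in the ipsilateral cerebellar cortex, 392 in the control group and 588 in the contralateral cerebellar cortex, so that the contralateral pool lay between the others.

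**Figure D2:**
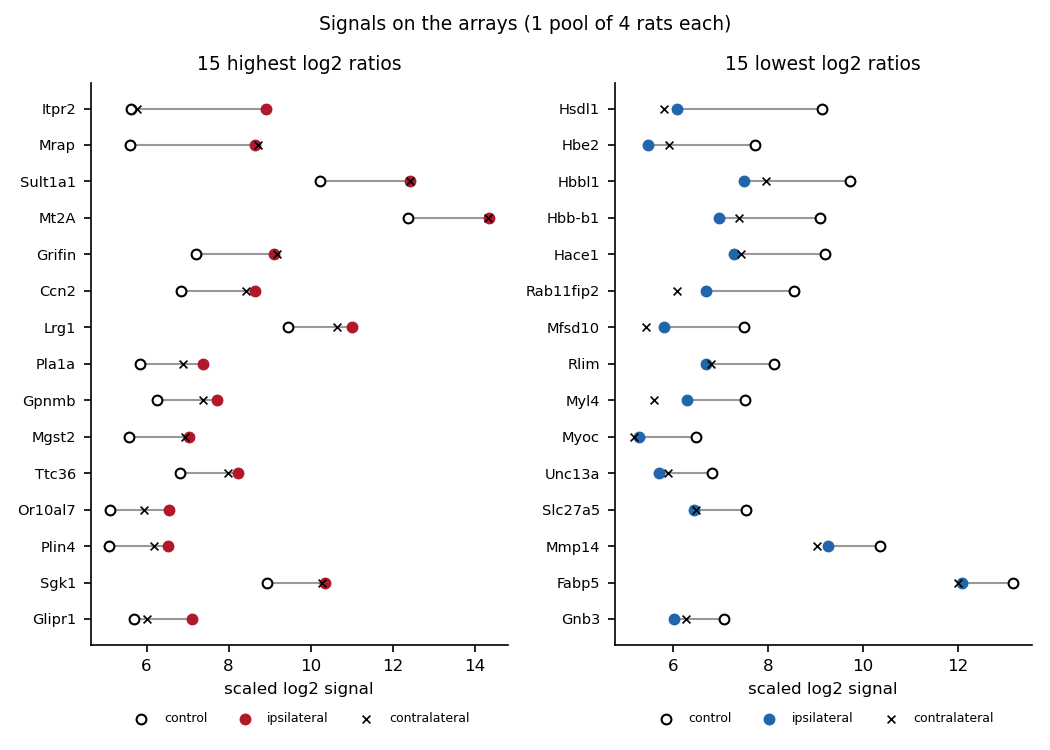
Scaled log2 signals of the 15 bright genes with the highest and the 15 with the lowest log2 ratio of ipsilateral to control among genes whose probes all changed the same way, with 1 point for each array, each a pool of 4 rats. Filled points are the ipsilateral array, open points the control array and crosses the contralateral array. In the left panel, Itpr2 is the gene whose contralateral signal lies closest to the control.

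Among the 2508 brightest genes, 12 were increased and 1 was decreased, where 0.548% and 0.229% of all bright genes were. Cym, the gene of the milk-clotting protease chymosin, had a signal of 12570 in the ipsilateral cerebellar cortex and 5328 in the control group, a log2 ratio of 1.24. Glra2, a glycine receptor subunit, was read at 4821 and 2177 with 2 probes that gave 1.02 and 1.27. The others named from these, Sult1a1, Mt2A, Bcl6, Mt1, Cx3cr1 and Ttr, belong to groups that are described next.

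Glucocorticoids act through the receptor Nr3c1, which enters the nucleus and raises the transcription of target genes such as Sgk1, Fkbp5, Per1 and Tsc22d3. Of the 30 genes of this list, all were on the array and 27 were bright. The median log2 ratio of these 27 was 0.62, against 0.0062 for all bright genes. There were 24 above 0, where 51.5% of all bright genes lay, and 5 above 1, where 0.548% lay. Of these 5, Angptl4 lay at the threshold, and relative to the median of all bright genes just under it. Sult1a1, a sulfotransferase that conjugates phenols and hormones, had a signal of 5422 in the ipsilateral cerebellar cortex, 1189 in the control group and 5498 in the contralateral cerebellar cortex, a log2 ratio of 2.19. Sgk1, a kinase that regulates ion channels, was read at 1296, 486 and 1232, a log2 ratio of 1.42. Bcl6, a transcriptional repressor and the brightest of the list, here and below by the mean log2 signal of the ipsilateral and control arrays, was read at 19330, 7341 and 18350, a log2 ratio of 1.40. In all of these genes the control pool was low and both pools of the MCAO group were high. Plin4, a coat protein of lipid droplets, had signals of 91.6, 34.3 and 73.0, a log2 ratio of 1.42.

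Most other targets were higher by smaller amounts, while Dusp1, a phosphatase, and Pik3r1, a subunit of PI3 kinase, had log2 ratios of -0.10 and -0.09. Angptl4, an inhibitor of lipoprotein lipase, was read at 1884 in the ipsilateral cerebellar cortex, 941 in the control group and 1799 in the contralateral cerebellar cortex. The clock gene Per1 had log2 ratios of 0.75 ipsilaterally and 0.72 contralaterally, the leucine zipper protein Tsc22d3 had 0.65 and 0.59, and the receptor chaperone Fkbp5 had 0.43 and 0.46. Map3k6, a kinase of the stress-activated cascade, had 0.90 and 0.96. Lcn2, the iron-scavenging lipocalin that inflammation also induces, differed between the sides, with 0.88 and -0.06. Nr3c1 itself was the lowest of the list, with signals of 236 in the ipsilateral cerebellar cortex and 270 in the control group, a log2 ratio of -0.19. Over the bright members, the median in the contralateral cerebellar cortex was 0.58. Both ratios use the same control array, and both pools came from the same rats. Pdk4, a kinase that holds back pyruvate oxidation, lay near background on both arrays. A low control pool and a high MCAO group cannot be told apart here, and stress hormones were not measured.

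Metallothioneins are small proteins rich in cysteine that bind zinc and copper. Mt1 and Mt2A are induced by metals through the factor Mtf1 and also by glucocorticoids, whereas Mt3 is made constitutively in brain. Mt2A had a signal of 20700 in the ipsilateral cerebellar cortex, 5264 in the control group and 20290 in the contralateral cerebellar cortex, a log2 ratio of 1.98 from 1 spot. Mt1 was read from 10 spots at 4349, 1746 and 4208, a log2 ratio of 1.32 with an SD of 0.07 between spots. Mt3, the brightest of the list by that mean, was read at 17360, 14450 and 17940, a log2 ratio of 0.26. Mt1 and Mt2A were thus low in the control pool, and Mt3 differed less. The sequences of these genes are alike, and hybridisation of 1 transcript to the probe of another was not tested. The zinc transporters did not share the increase. Slc30a3, which loads zinc into synaptic vesicles, was lowest at 211 and 267, a log2 ratio of -0.34, and Mtf1 was at 175 and 173. Over the 9 bright genes of the list, of 10 on the array, the median was 0.02.

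The promoters of the 3 metallothioneins are shown because the genes are neighbours on chromosome 19 and differed in their ratios. Promoters of RefSeq in the GRCr8 build, each spanning 250 bases before to 50 bases after a transcription start, were searched on both strands for the core of the metal response element, TGCNCNC. The motif and genes were chosen with the ratios known. Copies are in capitals. A match is a description and not a site or a cause, and no match says only that the letters are not in this window. Mt1, at chr19:10832926-10833225 on the - strand, had 7 copies, and 0.108% of the 33469 promoters had that many or more. Mt2A, at chr19:10838659-10838958, and Mt3, at chr19:10856031-10856330, both on the - strand, had 5 copies each, and 0.669% of promoters had that many or more. No copies overlapped, and at least 1 copy was present in 49.6% of all promoters. Mt3 thus had as many copies as Mt2A beside a log2 ratio of 0.26 against 1.98. Of the 8 genes of the list with a promoter in the table, 5 (62.5%) had a copy, against 52.0% of all genes with a promoter. A relaxed form of the glucocorticoid response element was searched in the same way and was found in 1 of 26 genes of the glucocorticoid list (3.85%), against 0.459% of all genes.
Mt1: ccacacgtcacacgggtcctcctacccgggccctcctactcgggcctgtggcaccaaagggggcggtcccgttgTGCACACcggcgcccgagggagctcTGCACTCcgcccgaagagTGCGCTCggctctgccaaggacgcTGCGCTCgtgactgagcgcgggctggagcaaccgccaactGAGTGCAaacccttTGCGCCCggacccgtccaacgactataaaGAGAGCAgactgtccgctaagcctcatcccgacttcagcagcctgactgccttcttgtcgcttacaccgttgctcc
Mt2A: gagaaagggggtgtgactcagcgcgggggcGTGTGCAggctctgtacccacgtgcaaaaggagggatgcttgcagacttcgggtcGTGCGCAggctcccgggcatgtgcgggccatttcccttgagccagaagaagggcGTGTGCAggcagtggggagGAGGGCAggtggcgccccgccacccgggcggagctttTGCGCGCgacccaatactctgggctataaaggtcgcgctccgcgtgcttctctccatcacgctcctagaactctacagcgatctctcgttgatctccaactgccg
Mt3: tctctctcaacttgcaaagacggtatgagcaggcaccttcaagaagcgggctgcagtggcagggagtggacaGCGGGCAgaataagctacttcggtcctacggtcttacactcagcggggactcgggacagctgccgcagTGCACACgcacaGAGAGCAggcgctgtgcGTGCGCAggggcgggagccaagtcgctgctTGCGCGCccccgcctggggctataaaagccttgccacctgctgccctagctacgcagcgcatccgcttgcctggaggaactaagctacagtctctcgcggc

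Microglia are the resident macrophages of the brain, and complement proteins made by them tag debris and synapses for removal. Over the 19 bright microglia and macrophage genes, of 23 on the array, the median log2 ratio was 0.08. Of these, 14 (73.7%) were above 0, where 51.5% of all bright genes lay. Cx3cr1, the fractalkine receptor, had a signal of 3311 in the ipsilateral cerebellar cortex, 1370 in the control group and 2345 in the contralateral cerebellar cortex, a log2 ratio of 1.27 from 1 spot. Fcgr2b, the inhibitory receptor for immunoglobulin G, was read from 10 spots at 239, 110 and 159, a log2 ratio of 1.12. In both genes the contralateral pool lay between the ipsilateral pool and the control pool. Other markers of the same cells lay on both sides of the control group. The endotoxin co-receptor Cd14, the lysosomal protein Cd68 and the integrin Itgam had log2 ratios of 0.72, 0.56 and 0.54. Gpr34, a receptor for lysophosphatidylserine, was lowest at 283 and 312, a log2 ratio of -0.14, and Aif1, the calcium-binding protein Iba1, had -0.10. The log2 of the summed signals of the list was 14.38 in the ipsilateral cerebellar cortex, 14.10 in the control group and 14.23 in the contralateral cerebellar cortex. In RNA of whole tissue, more or fewer cells of a type and more or less RNA per cell cannot be told apart.

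Of 20 complement genes on the array, 16 were bright and 13 of these (81.25%) were above 0, where 51.5% of all bright genes lay. The median log2 ratio was 0.39, whereas the median in the contralateral cerebellar cortex was 0.06 against the same control array. C1qc, a chain of the recognition protein C1q, had a signal of 716 in the ipsilateral cerebellar cortex, 345 in the control group and 522 in the contralateral cerebellar cortex, a log2 ratio of 1.05. C1qb, another chain, was read from 10 spots at 7344, 3722 and 5724, a log2 ratio of 0.98, and the remaining chain, C1qa, had 0.75. All chains of C1q were highest in the ipsilateral pool and lowest in the control pool. C4b and C4a, which C1 cleaves after binding, had 0.80 and 0.79, and Serping1, the inhibitor of C1, had 0.77. C3, on which the pathways converge, was at 620 and 576, a log2 ratio of 0.11. Clu, an inhibitor of the membrane attack complex and the brightest of the list, was at 13700 and 14040, a log2 ratio of -0.04, and Cfp, which stabilises the alternative convertase, was lowest at -0.29.

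**Figure D3:**
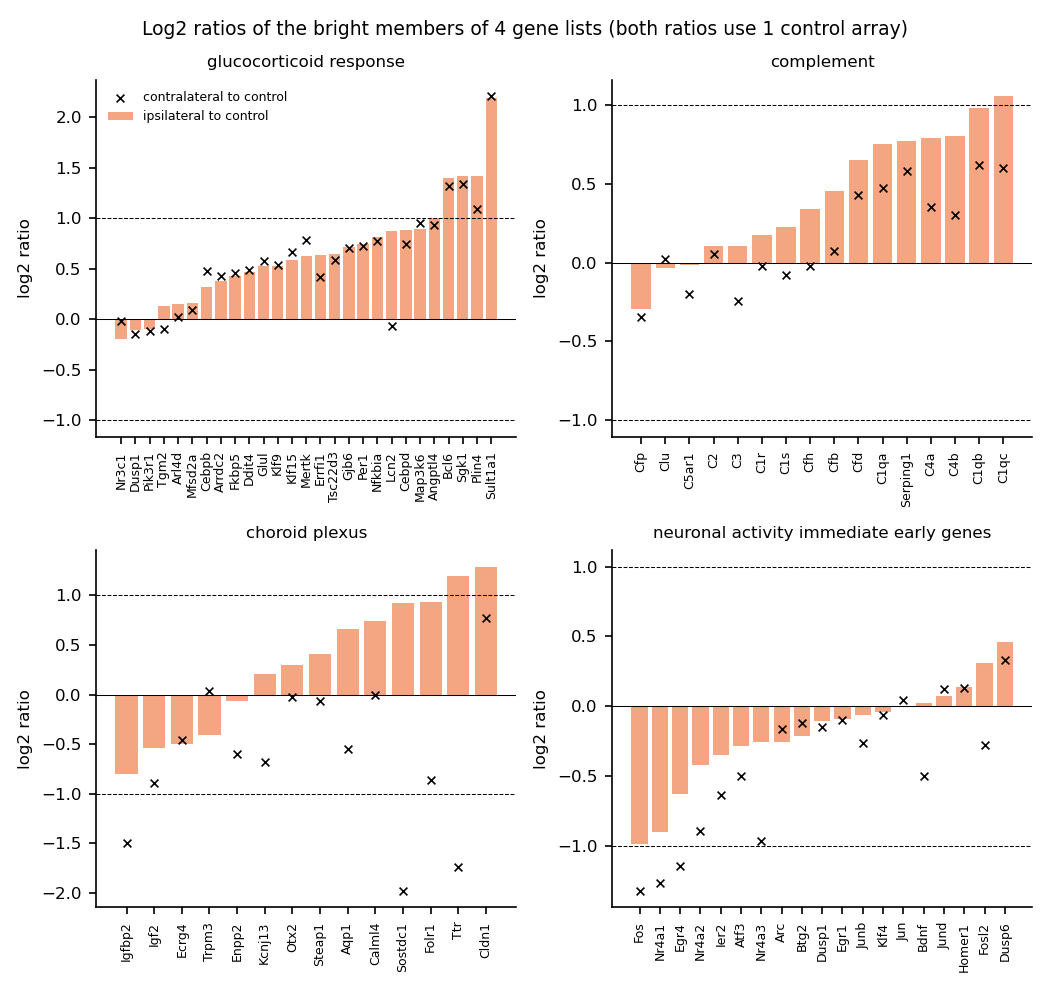
Log2 ratios to the control group of the bright members of 4 gene lists. Bars are the ipsilateral cerebellar cortex and crosses the contralateral cerebellar cortex, which share the control array, and dashed lines lie at 1 and -1. Crosses lie close to the bars for most glucocorticoid-responsive genes, under the bars for most complement genes, and on the other side of 0 for Ttr.

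Of 29 genes of acute phase proteins and vascular inflammation on the array, 16 were bright, with a median log2 ratio of 0.19 and 12 above 0. Lrg1, an acute phase glycoprotein of endothelium and liver, had a signal of 2045 in the ipsilateral cerebellar cortex, 698 in the control group and 1592 in the contralateral cerebellar cortex, a log2 ratio of 1.55. Cp, the copper oxidase ceruloplasmin, was read at 645, 343 and 499, a log2 ratio of 0.91. Timp1, an inhibitor of matrix metalloproteinases, was read from 8 spots at 1298, 732 and 774, a log2 ratio of 0.83. Timp1 was high in the ipsilateral pool and close to the control in the contralateral pool, and Lrg1 and Cp were raised in both. Vcam1, an adhesion molecule of endothelium and the brightest of the list, was at 2031 and 2367, a log2 ratio of -0.22. Cxcl10, a chemokine induced by interferon, was lowest at 49.8 and 84.1, a log2 ratio of -0.76. Selp, Osmr, Cxcl1, Il6 and Serpina3n lay near background on both arrays. Of 18 neutrophil and lymphocyte genes on the array, 3 were bright, among them Nkg7 of cytotoxic lymphocytes at 0.74 and Cd8a at -0.43, with a median of -0.03. Elane, Ltf, Cxcr2, Mmp8, Mmp9, Cd3e, Klrb1a and Prf1 lay near background on both arrays.

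The choroid plexus, whose epithelium makes cerebrospinal fluid, lies next to the cerebellum in the fourth ventricle. Ttr, the thyroxine carrier that its epithelium secretes, had a signal of 75330 in the ipsilateral cerebellar cortex, 32960 in the control group and 9910 in the contralateral cerebellar cortex, over 10 spots with an SD of 0.04. Its log2 ratio was 1.19 ipsilaterally and -1.73 contralaterally. The ipsilateral pool was the highest and the contralateral pool the lowest of the arrays. Folr1, a folate receptor, had log2 ratios of 0.93 and -0.87, and Sostdc1, a secreted inhibitor of BMP and Wnt signalling, had 0.92 and -1.98. Cldn1, a tight junction protein, was highest of the list at 1.29 and 0.77. Igfbp2, which binds insulin-like growth factors and is made by meninges as well, was lowest, with signals of 3326, 5801 and 2057 and a log2 ratio of -0.80.

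Of 21 choroid plexus markers on the array, 14 were bright, with a median log2 ratio of 0.36 in the ipsilateral cerebellar cortex and -0.57 in the contralateral cerebellar cortex. Ipsilaterally 9 of them (64.3%) lay above 0, where 51.5% of all bright genes lay. The log2 of the summed signals of the list was 16.35 ipsilaterally, 15.42 in the control group and 13.91 contralaterally, most of it Ttr. The tight junction gene Cldn2, Tmem72 and Slc5a7 were not well above background on the ipsilateral or the control array. How much choroid plexus each dissection held was not measured, and its part in the ratios was not tested.

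The genes of globins were lower than in the control group. Hbb-b1, a beta globin of adult red cells, was read with 2 probes and 20 spots at 125 in the ipsilateral cerebellar cortex, 548 in the control group and 169 in the contralateral cerebellar cortex, a log2 ratio of -2.14. Hbbl1 and Hbe2, further members of the beta globin family, had 181 and 854, a log2 ratio of -2.24, and 44.0 and 213, a log2 ratio of -2.28. Hba-a1, an alpha globin, was at 985 and 2015, a log2 ratio of -1.03. All of these were high in the control pool and low in both pools of the MCAO group. The genes are near-identical copies in part, and hybridisation across them was not tested. Of 12 erythroid genes on the array, 4 were bright, with a median of -0.59. Among these Bpgm, a glycolytic enzyme of red cells that brain also expresses and the brightest of the list, had 0.14. The log2 of the summed signals was 12.58 in the ipsilateral cerebellar cortex, 12.90 in the control group and 12.60 in the contralateral cerebellar cortex. Every probe was well above background for 7 of the 12 genes ipsilaterally and for 10 in the control group, and Epb42 and Hemgn were not so on either array. The amount of blood in each sample was not measured, and its part in these ratios was not tested.

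The lowest ratio of all bright genes was that of Hsdl1, a hydroxysteroid dehydrogenase-like protein. Its signal was 67.3 in the ipsilateral cerebellar cortex, 563 in the control group and 56.4 in the contralateral cerebellar cortex, a log2 ratio of -3.06 from 1 spot. Hace1, a ubiquitin ligase, was read at 156, 593 and 173, a log2 ratio of -1.92. Rab11fip2, an effector of Rab11 in endosome recycling, was read at 103, 375 and 68.1, a log2 ratio of -1.86. In each of them the control pool was high and both MCAO pools were low, and each was read from 1 spot. Mfsd10, a membrane transporter, had a log2 ratio of -1.70, and Rlim, a ubiquitin ligase, -1.42. Myl4, a myosin light chain, had -1.23, the secreted protein Myoc -1.21 and Slc27a5, an acyl-CoA synthetase, -1.11. Rp2, a GTPase-activating protein of photoreceptors, had a log2 ratio of -1.40, but its 2 probes gave -2.96 and 0.16. Unc13a, which primes synaptic vesicles for release, was read at 52.1 and 113, a log2 ratio of -1.12. Several of these calls ended with normexp correction and an offset of 50, changed together, which gave -0.89 for Rab11fip2, -0.60 for Mfsd10, -0.66 for Rlim and -0.53 for Myl4. It gave -0.32 for Myoc, -0.58 for Slc27a5, -0.41 for Unc13a, -0.46 for Gnb3 and -0.95 for Hba-a1. Of the increased genes named, it brought Lgals3 to 0.95, C1qc to 0.93, Pnpla7 to 0.97, Cldn1 to 0.96, Glipr1 to 0.94, Plin4 to 0.88 and Or10al7 to 0.84.

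Some decreases rested on several spots or probes. Mmp14, a membrane-bound matrix metalloproteinase, was read with 2 probes and 20 spots at 614 in the ipsilateral cerebellar cortex, 1324 in the control group and 527 in the contralateral cerebellar cortex, a log2 ratio of -1.11. Fabp5, a carrier of fatty acids, was read with 2 probes and 18 spots at 4388, 9216 and 4110, a log2 ratio of -1.07. Tubb2b, a tubulin of developing neurons and glia, was read from 10 spots at 4508, 8378 and 4290, a log2 ratio of -0.89. These genes were high in the control pool and alike in both MCAO pools. Gnb3, a G protein subunit known from cones, was read with 2 probes at 64.9 and 135, a log2 ratio of -1.06. Ednrb, the endothelin B receptor of astrocytes, was at 1759 and 2782, a log2 ratio of -0.66.

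Cholesterol is made in brain cells themselves, under control of the factor Srebf2. Of the 27 genes of synthesis and uptake, 24 were bright, 5 of them above 0, and the median log2 ratio was -0.27 ipsilaterally and -0.22 contralaterally against the same control array. Hmgcs1, which makes the precursor HMG-CoA and is the brightest of the list, had a signal of 9828 in the ipsilateral cerebellar cortex, 17220 in the control group and 9884 in the contralateral cerebellar cortex, a log2 ratio of -0.81. Dhcr7, which catalyses the last step, was lowest at 298, 530 and 304, a log2 ratio of -0.83. Cyp51, the lanosterol demethylase, was read from 11 spots at 2605, 4135 and 2615, a log2 ratio of -0.67. The control pool was the high one in these genes. Sqle, the squalene epoxidase, had -0.52 over 10 spots. Hsd17b7, a sterol ketone reductase, was highest at 0.36, close to the brightness limit with signals of 52.2 and 40.5. No bright gene of the list was beyond 1 in either direction, where 0.548% of all bright genes lay above 1 and 0.229% below -1.

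The CCAAT box, bound by the factor NF-Y, which acts with Srebf2 at many of these genes, was searched on both strands. Of the 18 genes of the list with a promoter in the table, 13 (72.2%) had it, against 39.6% of 27457 genes and 37.5% of 33469 promoters. The motif was chosen with the ratios known. Hmgcs1, at chr2:53382054-53382353 on the + strand, had 2 copies, which 11.2% of promoters reached, shown in capitals on the printed strand as ATTGG.
Hmgcs1: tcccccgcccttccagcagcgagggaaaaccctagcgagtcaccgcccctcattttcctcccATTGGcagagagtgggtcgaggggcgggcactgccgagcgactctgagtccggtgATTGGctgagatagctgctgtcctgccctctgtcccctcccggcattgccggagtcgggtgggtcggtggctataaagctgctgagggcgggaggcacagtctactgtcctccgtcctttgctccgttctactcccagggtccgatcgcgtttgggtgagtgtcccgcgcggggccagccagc

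Immediate early genes are transcribed within minutes of neuronal activity. Of 23 on the array, 19 were bright. Of these, 5 (26.3%) were above 0, where 51.5% of all bright genes lay, and 3 were below -0.5, where 2.29% lay. The median log2 ratio was -0.10 ipsilaterally and -0.26 contralaterally against the same control array. Fos, a subunit of the factor AP-1, was lowest, with signals of 120 in the ipsilateral cerebellar cortex and 237 in the control group, a log2 ratio of -0.98, and -1.32 contralaterally. Nr4a1, an orphan nuclear receptor, was read from 10 spots at 1208, 2250 and 937, a log2 ratio of -0.90. Egr4, a zinc finger factor, was read at 847, 1307 and 593, a log2 ratio of -0.63. In these genes the control pool was the highest and the contralateral pool the lowest. Arc, an activity-regulated protein of dendrites, had -0.25, and Egr1 had -0.09. Dusp6, a phosphatase of the MAP kinase Erk, was highest at 0.46, and Jund, the brightest of the list, had 0.07. Npas4 lay near background on both arrays.

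Many of these genes are induced by cyclic AMP through the factor Creb, whose site holds the letters TGACG. It was searched on both strands, with its motif chosen after the ratios were known. Of the 17 genes of the list with a promoter in the table, 11 (64.7%) had it, against 23.0% of all genes with a promoter. Nr4a1, at chr7:134259888-134260187 on the + strand, had 4 copies without overlap, which 0.236% of all promoters reached. The copies are in capitals and read CGTCA on the printed strand.
Nr4a1: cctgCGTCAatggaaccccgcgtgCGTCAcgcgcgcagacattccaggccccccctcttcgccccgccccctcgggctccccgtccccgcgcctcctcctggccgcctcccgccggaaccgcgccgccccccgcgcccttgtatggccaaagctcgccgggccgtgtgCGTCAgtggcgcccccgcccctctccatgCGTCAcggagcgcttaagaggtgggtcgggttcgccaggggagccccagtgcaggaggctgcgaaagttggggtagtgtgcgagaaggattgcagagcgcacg

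Markers of the meninges and of vessels were slightly lower. Of 17 genes of leptomeninges and fibroblasts on the array, 16 were bright, of which 4 were above 0, with a median log2 ratio of -0.22 ipsilaterally and -0.40 contralaterally. Col1a1, a chain of collagen I, was lowest at 1332 in the ipsilateral cerebellar cortex, 2030 in the control group and 848 in the contralateral cerebellar cortex, a log2 ratio of -0.61. Mgp, an inhibitor of calcification, was highest at 0.47, and Ptgds, a prostaglandin synthase and the brightest of the list, was at 93320 and 86210, a log2 ratio of 0.11. The log2 of the summed signals was 16.76, 16.70 and 16.54 in the same order. Of 26 genes of endothelium and pericytes, 24 were bright, of which 7 were above 0, with a median of -0.16 and sums of 14.52, 14.57 and 14.46. Kdr, a receptor for VEGF, was lowest at 1270, 2163 and 1367, a log2 ratio of -0.77, and Slc2a1, the glucose transporter of the blood-brain barrier, was highest at 8221, 5777 and 7561, a log2 ratio of 0.51. The tight junction gene Cldn5 had -0.14. How much meninges and how many vessels each sample held was not measured.

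**Figure D4:**
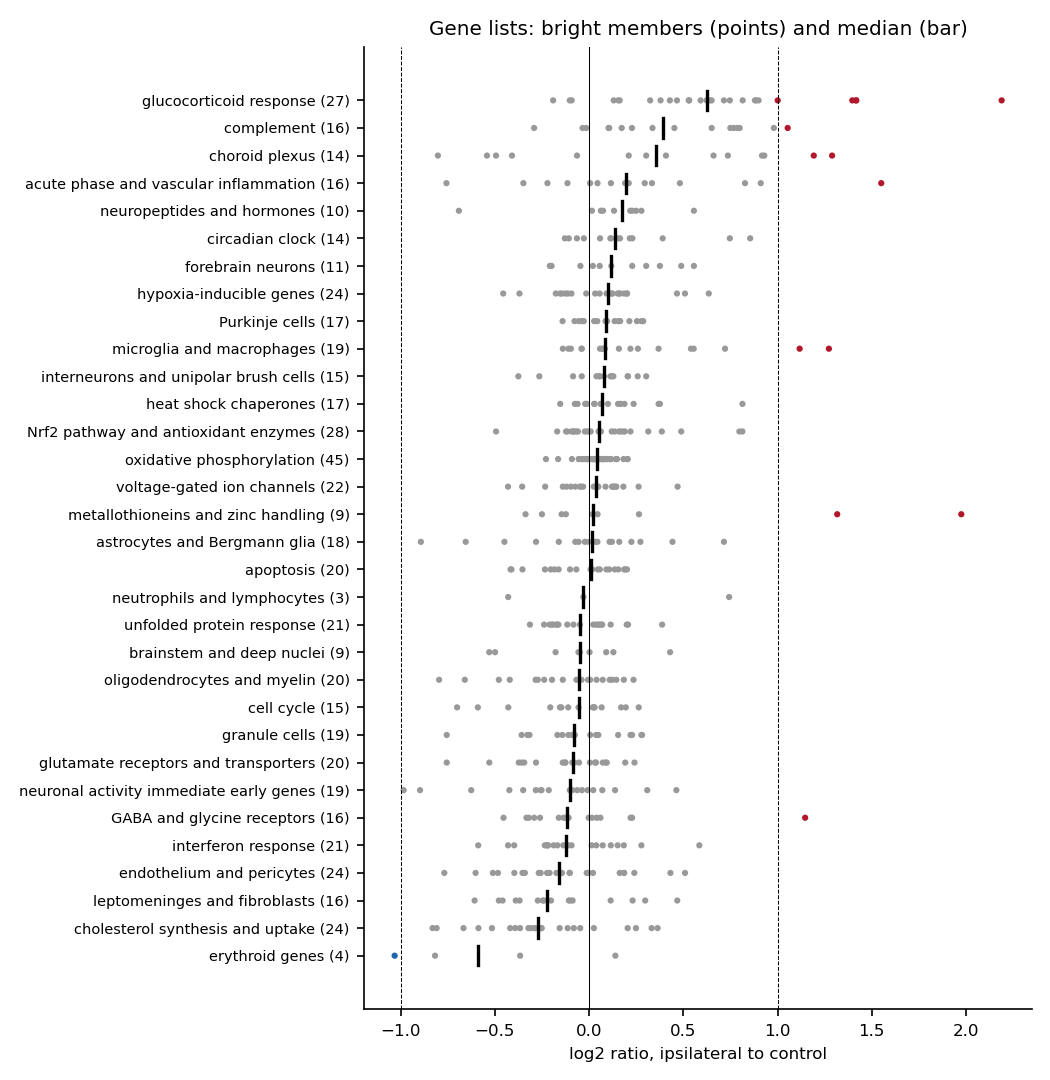
Log2 ratios of ipsilateral to control of the bright members of all 32 gene lists, with the number of bright members in brackets. Each point is a gene, the black bar is the median of the list, and dashed lines lie at 1 and -1. The glucocorticoid-responsive genes have the highest median, 0.62, and the erythroid genes the lowest, -0.59.

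Neuronal markers were close to the control group. Of 17 bright Purkinje cell genes, none was beyond 0.5 in either direction, and the median log2 ratio was 0.09. Plcb3, a phospholipase of the metabotropic glutamate pathway, was highest at 0.29. The 19 bright granule cell genes had a median of -0.08, with Diras2, a small GTPase, highest at 0.28. Grm4, the metabotropic glutamate receptor at parallel fibre terminals, stood apart, with signals of 23290 in the ipsilateral cerebellar cortex, 39330 in the control group and 21500 in the contralateral cerebellar cortex over 10 spots, a log2 ratio of -0.76. Gabra6, a GABA-A receptor subunit of granule cells, had 0.23. The 15 bright genes of interneurons and unipolar brush cells had a median of 0.08, from Lgi2 at -0.38 to Otx2 at 0.30. Of 19 forebrain markers, 11 were bright with a median of 0.12, from Nrgn at -0.21 to the opioid precursor Penk at 0.56, with the factor Prox1 brightest at -0.20. In the contralateral pool the median of the list was -0.02, but Nrgn was at 163 against 45.8 in the control group and the peptide precursor Tac1 at 168 against 44.1. Cck, a peptide precursor of other lists, was at 960 there against 81.6. These genes were chosen after their values were seen, and the cause was not tested. Of 20 brainstem and deep nuclear markers, 9 were bright with a median of -0.05, from the glutamate transporter Slc17a6 at -0.53 to the monoamine transporter Slc18a2 at 0.43. Nefm, a neurofilament, was the brightest of these at 3189 and 3184.

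Receptors and channels differed little. Of 20 bright glutamate receptor and transporter genes, 8 were above 0 and the median log2 ratio was -0.08, with Grm4 brightest and lowest and the NMDA receptor subunit Grin2d highest at 0.24. Of 16 bright GABA and glycine receptor genes, 6 were above 0 and the median was -0.12, with Glra2 as the only member beyond 1. With normexp correction and an offset of 50 this median, relative to all bright genes, was 0.02. Gabrb2, a GABA-A receptor subunit, was lowest at -0.45, and Gabrd, the subunit of tonic inhibition in granule cells and the brightest of the list, was at 21320 and 18310. The 22 bright voltage-gated ion channels had a median of 0.04. Scn8a, a sodium channel, was lowest at -0.43, and Scn2a, the brightest of the list, had 0.02. Of 24 neuropeptide and hormone genes, 10 were bright, of which 9 were above 0 with a median of 0.18. Trh, the thyrotropin-releasing hormone, was lowest at -0.69, and Sst, somatostatin, the brightest of the list, was at 5451 and 4585.

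Glial markers diverged among themselves. Of 18 bright genes of astrocytes and Bergmann glia, 9 were above and 9 below 0, and the median log2 ratio was 0.01. Fabp7, the fatty acid carrier of Bergmann glia, was lowest at 1486 in the ipsilateral cerebellar cortex, 2759 in the control group and 1590 in the contralateral cerebellar cortex, a log2 ratio of -0.89. Gfap, the astrocyte intermediate filament, was read at 459, 722 and 434, a log2 ratio of -0.66. Both were high in the control pool. Gjb6, the gap junction protein connexin 30, which the glucocorticoid list also holds, was highest at 5168, 3147 and 5151 over 10 spots, a log2 ratio of 0.72, and the glycolytic enzyme Aldoc, the brightest of the list, had 0.44. The 20 bright genes of oligodendrocytes and myelin had a median of -0.05. Mobp, a myelin protein, was highest at 0.24.

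Genes of energy supply and of oxidative stress were near the control group. All 45 bright subunits of oxidative phosphorylation lay between -0.23 for Ndufa10 and 0.20 for Cox4i1, with 33 above 0 and a median of 0.04. Cox6a1, the brightest of the list, was at 149700 in the ipsilateral cerebellar cortex and 131900 in the control group. Of 24 bright hypoxia-inducible genes, 15 (62.5%) were above 0, where 51.5% of all bright genes lay, with a median of 0.10. Adm, the vasodilator adrenomedullin, was highest at 470, 303 and 422 over 10 spots, a log2 ratio of 0.64. Epas1, the factor HIF-2 alpha, was lowest at -0.46, Vegfa had -0.37, and the glycolytic enzyme Pgk1, the brightest of the list, had 0.03. The 28 bright genes of the Nrf2 pathway and antioxidant enzymes had a median of 0.05. Of these, 17 (60.7%) were above 0, near the 51.5% of all bright genes. Nfe2l2, which encodes Nrf2, was at 942, 867 and 866, a log2 ratio of 0.12. Its target Hmox1, heme oxygenase-1, was highest at 245, 139 and 197, a log2 ratio of 0.81 from 1 spot, and Nqo1, a quinone reductase, had 0.80. Slc7a11, the cystine transporter that Nrf2 also controls, was lowest at -0.49, and Fth1, the ferritin heavy chain, brightest of the list, had 0.39. Thus members known as targets of Nrf2 lay on both sides of 0.

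Of the bright members of the lists of stress and death pathways, only Hspb1 lay beyond a log2 ratio of 0.5 in either direction. Of 17 bright heat shock chaperones, 12 were above 0 and the median log2 ratio was 0.07. Hspb1, the small heat shock protein, was highest at 1233 in the ipsilateral cerebellar cortex, 702 in the control group and 1195 in the contralateral cerebellar cortex over 9 spots, a log2 ratio of 0.81. Hspa8, the constitutive chaperone and the brightest of the list, had 0.38, and Hsph1 was lowest at -0.15. The 21 bright genes of the unfolded protein response had a median of -0.05, from the chaperone Hsp90b1 at -0.31 to Herpud1, a component of endoplasmic reticulum degradation, at 0.39, with Atf4 brightest at 0.11. The 20 bright apoptosis genes had a median of 0.01, from Bcl2, which blocks apoptosis, at -0.42 to Casp8, an initiator caspase, at 0.20, and Bax, brightest of the list, had -0.07. None of these lists had a bright member beyond 1 in either direction, where 0.548% of all bright genes lay above 1 and 0.229% below -1.

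Of 14 bright circadian clock genes, 10 were above 0 and the median log2 ratio was 0.14. Per2, a repressor of the clock, was highest at 211 in the ipsilateral cerebellar cortex, 116 in the control group and 212 in the contralateral cerebellar cortex, a log2 ratio of 0.85, followed by Per1, which the glucocorticoid list also holds. Csnk1e, a kinase of the Per proteins, was lowest at -0.13, and Cry2, brightest of the list, had 0.11. The hour at which each pool was taken was not known. The 15 bright cell cycle genes had a median of -0.06, from the cyclin Ccnd2 at -0.70 to Mcm2, a helicase subunit, at 0.26, with Pcna, the sliding clamp, brightest at 0.02. Of 21 bright interferon response genes, 8 were above 0 and the median was -0.12. Mx2, an antiviral GTPase and the brightest of the list, was highest at 37550, 25030 and 36440, a log2 ratio of 0.58, and Bst2, the antiviral protein tetherin, was lowest at 350, 526 and 275, a log2 ratio of -0.59.

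Some genes were bright on 1 array and not well above background on the other, and for these the ratio gives only a bound. The dim side was set at the lowest scaled signal among probes well above background on its array, or at its own signal where that was higher. There were 45 such genes higher in the ipsilateral cerebellar cortex and 24 higher in the control group. Ugt1a8, a glucuronosyltransferase, had a signal of 192 ipsilaterally and was at least 22-fold higher than in the control group. Or51q1d, an olfactory receptor gene, was at least 16.9-fold higher, Otop2, a proton channel, at least 15.5-fold, Mfrp, a frizzled-related membrane protein, at least 13.8-fold, Pax9, a paired box factor, at least 12.4-fold and Ins2, an insulin gene, at least 9.72-fold. In the other direction, Dnaaf1, which assembles dynein arms of cilia, had a signal of 223 in the control group and was at least 18.0-fold higher there. Garin1b was at least 15.9-fold higher in the control group, Rnase11, of the ribonuclease A family, at least 12.4-fold, Or8b56g, an olfactory receptor gene, at least 11.0-fold, Tlr10, a toll-like receptor, at least 9.78-fold and Tsnaxip1 at least 8.68-fold. Each of these was read from 1 spot, and many are known from tissues other than cerebellum.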

How the data were processed

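Each of 3 arrays (ipsilateral, control, contralateral) held RNA from pooled tissue of 4 rats. The deposited scanner files give fluorescence intensity, which the authors obtained with Agilent Feature Extraction 12.1.0.3, background-subtracted and not scaled between arrays. Control spots were removed, as were 759 spots that the scanner software called outliers on at least 1 array. Log2 intensities were shifted to a common 75th percentile and averaged over spots, probes and genes. Of 39957 accessions, 17622 matched a RefSeq symbol, and the rest were not described as genes. The scanner error of a log2 ratio had a median of 0.20. Genes were named by rule. The first were the 15 highest and 15 lowest ratios of genes whose probes all changed the same way. Next were genes with 2 or more probes, each beyond 1, up to 8 at each end, which gave 6 increased and 4 decreased. From the 2508 brightest, 8 at each end were taken. The extremes and brightest of each list, the 6 largest bounds in each direction and a few reference genes were also named. Others were chosen after their values were seen. The members and lists were chosen with earlier results of these data known. The analysis was repeated unscaled, with the median, spike-in probes or quantiles as the basis of scaling, and with the deposited table, normexp on the median spot and background signals with an offset of 50, the offset of 50 alone, other brightness limits, the brightest probe and outliers kept. Python 3.11.15, numpy 2.4.6, pandas 2.3.3, matplotlib 3.10.9, R 4.3.3 and limma 3.58.1 were used, and the code was tested on simulated data.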

Additional observations from a re-analysis of the deposited data

Results flagged for a closer look

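The log2 ratio of Ttr was 1.19 in the ipsilateral cerebellar cortex and -1.73 in the contralateral cerebellar cortex, and the median of the choroid plexus list was 0.355 and -0.572. Both are given here because the sides of the same rats lay in opposite directions from the shared control array. The difference was not tested, and the amount of choroid plexus in each pool is unknown.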

How the results depend on the processing

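The counts of 55 genes above 1 and 23 below -1 stayed within 1.5 times under scaling to the median (56 and 22), quantile normalization (53 and 26), the deposited values (44 and 27), the brightest probe (61 and 27) and with outlier spots kept (56 and 25). They were 7 and 276 without scaling and 26 and 71 with spike-in scaling, where the shift of all ratios moved them. They were 29 and 7 with normexp and an offset of 50 together (80.6% increased) and 31 and 8 with the offset of 50 alone, so the settings overlap and the part of normexp by itself was not tested. They were 214 and 54 for genes well above background only, where more genes were counted, and 33 and 9 at 30 times the negative control percentile, where fewer were. No gene named by the rule with a ratio beyond 1 or -1 changed sign, though several fell within the threshold, most without scaling or with normexp and offset. Some nearer to 0 did: normexp with the offset gave 0.10 for Cd8a, 0.13 for Cfp, 0.12 for Lgi2, 0.23 for Nrgn and 0.11 for Trh, quantile normalization gave -0.23 for Cox6a1, and the brightest probe gave -0.04 for Grin2d, among others. Of the lists over 0.1 from the median of all bright genes, that of GABA and glycine receptors reversed, to 0.016 with normexp and offset, and that of erythroid genes ranged from -0.81 to -0.30. Others kept their direction but not their size: interferon response (-0.15 to -0.02), immediate early genes (-0.19 to -0.06), leptomeninges (-0.26 to -0.11), choroid plexus (0.20 to 0.39) and forebrain (0.11 to 0.30). Lists nearer to 0 also crossed it: cell cycle, oxidative phosphorylation, unfolded protein response, neutrophils and lymphocytes, metallothioneins, apoptosis, astrocytes and voltage-gated channels. The cause was not tested. No paired analysis was possible because there was 1 array for each group. Each array held 1 pool, so variation between rats is unknown. From the ipsilateral and control arrays alone, right and left cannot be told apart from MCAO and control, and dim genes remain limited by the signal of the ipsilateral array over its background.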
